A study of Mus musculus with 10 samples.

Results

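Interleukins are small secreted proteins through which immune, epithelial and stromal cells signal to each other, and each acts through a receptor built of 1 or more chains on the receiving cell. Here they and their receptors were followed in salivary gland cells of NOD mice, which become diabetic through autoimmunity and often have inflamed salivary glands as well. A gene was included when its symbol starts with Il followed directly by a digit and a probe set of the array names that gene alone, and the brightest probe set stood for each gene. This gave 78 genes of the 22180 on the array with a probe set of their own, held by 80 probe sets. They comprised 37 ligands, 37 receptor chains, 3 antagonists or binding proteins and 1 noncoding RNA, Il1bos, which lies over Il1b on the opposite strand. The relatives Il1rl1, Il2rg, Il11ra1, Il11ra2 and Il4i1, which have no probe set naming them alone, were not analysed here.

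Gene expression was measured on 10 arrays from female NOD/ShiLtJ mice, all of the 1 strain and without a further stated allele or agent. The groups were 4 mice with type 1 diabetes at 21 weeks of age, 3 mice without diabetes at 21 weeks and 3 mice without diabetes at 6 weeks. Cells were freed from the gland with the enzymes dispase II and collagenase IV and passed through a filter, so RNA came from cells that survive digestion, and the labels do not say which salivary gland was taken. Arrays are numbered within each group, and p-values are set against the spread between these arrays.

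Families of these genes work through shared receptor chains. The IL-1 family signals through paired receptors, several of which share the partner Il1rap, while Il18r1 pairs with Il18rap. The adaptor Myd88 carries the signal onward. IL-6 and its relatives signal through gp130, encoded by Il6st, to JAK kinases and STAT factors, while IL-2, IL-4, IL-7, IL-9, IL-15 and IL-21 share a common gamma chain and drive lymphocytes. IL-33 is a nuclear protein of stromal and barrier cells that is released on damage, and IL-34 is a ligand of Csf1r, the receptor that maintains macrophages.

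Il33 is shown by the windows around its RefSeq start sites, because it is 1 of the 2 members that passed the test below and has a sequence in the table used. Windows of 300 bases, 250 before to 50 after a start on build GRCm38.p6, were searched on both strands for TATAAA, the STAT-type palindrome TTCNNNGAA and the AP-1-type site TGANTCA, and matches stand in capitals. These motifs do not overlap in the windows shown.
Il33 start 1, chr19:29924863-29925162, plus strand: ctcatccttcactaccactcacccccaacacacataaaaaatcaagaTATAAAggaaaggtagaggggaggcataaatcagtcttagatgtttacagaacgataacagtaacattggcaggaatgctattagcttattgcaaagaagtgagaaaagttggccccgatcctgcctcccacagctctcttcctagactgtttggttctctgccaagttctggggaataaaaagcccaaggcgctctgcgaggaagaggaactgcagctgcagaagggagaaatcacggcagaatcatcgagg
Il33 start 2, chr19:29945540-29945839, plus strand: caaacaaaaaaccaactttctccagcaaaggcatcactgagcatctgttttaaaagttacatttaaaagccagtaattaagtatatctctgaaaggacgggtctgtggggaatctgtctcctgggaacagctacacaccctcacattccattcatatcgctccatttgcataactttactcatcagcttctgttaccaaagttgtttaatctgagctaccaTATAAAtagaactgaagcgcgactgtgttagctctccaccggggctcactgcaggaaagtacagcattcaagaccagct
TATAAA occurred in both, with its first base 203 bases before start 1 and 29 bases before start 2, and 13.6% of 32851 start-site windows held it. TTCNNNGAA and TGANTCA had 0 matches in both windows, against 8.3% and 7.81% of all windows. Il33 has 1 probe set on the array, so the values below do not separate the starts, and Il34 had no entry in the window table.

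Values are log2 intensities, on which a difference of 1 is a doubling, and levels are not compared between genes because each probe set has its own brightness. Of the 78 genes, 66 were measured, meaning that they lay above an array's own 25th percentile (2.58 to 2.7) on at least 3 arrays, and 52 did so on all 10. On all 10 arrays 23 exceeded the array median (3.53 to 3.69). Of these 23, 15 were receptor chains, 7 were ligands (Il15, Il17c, Il17d, Il25, Il27, Il33 and Il34) and 1 was Il18bp, a decoy that binds IL-18. On no array did 32 of the 78 exceed the median. The 12 not measured were Il2, Il3, Il6, Il17b, Il18, Il22, Il22ra2, Il1f8, Il1f9, Il13ra2, Il1rapl1 and Il1rapl2. Il6, the classic ligand of Il6ra, lay between 1.57 and 2.74 across the 10 arrays, and Il18 between 2.13 and 2.43.

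Some arrays and marker sets stood apart, which bears on all comparisons below. Array 3 of the nondiabetic 21-week group had correlations of 0.901 to 0.93 with the rest, while those among the remaining 9 arrays were 0.94 to 0.975. Diabetic array 4 had the highest means of T cell (5.15, others of its group 4.13 to 4.20) and B cell markers (5.38 against 3.76 to 4.09). The groups also differed in gland cargo. The mean of 6 cargo genes abundant in the parotid gland, chosen with earlier results of these arrays known, was 10.28 to 10.74 in diabetic arrays, 4.28 to 6.68 in nondiabetic arrays at 21 weeks and 4.85 to 8.66 at 6 weeks. The 6 measured markers of granular convoluted tubules, a segment of the submandibular gland, averaged 4.08 to 6.21, 9.16 to 9.98 and 7.74 to 8.28. Diabetic and nondiabetic 21-week arrays thus did not overlap in either set, and diabetes and the gland mixture cannot be told apart here. In bulk samples, more cells of a type and more RNA per cell cannot be told apart either.

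The first comparison set diabetic against nondiabetic mice at 21 weeks. Il33 and Il34 were about 2-fold higher in diabetic glands, and no other interleukin or receptor gene passed the test. Of the 66 measured, 2 rose (3.03%) against 1.1% of all 18826 genes tested, 0 fell against 0.34% of all genes and 64 did not pass an adjusted p of 0.05 (limma, with Benjamini-Hochberg adjustment over the 18826). Before adjustment, 10 members had p under 0.05 (8 higher, 2 lower), which is 15.2% against 15.8% of all genes, so the share is near the background. The median log2 change was 0.09 over the members and 0.03 over all genes.

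Il33 read 5.14, 5.31, 6.00 and 5.28 in diabetic arrays, 4.52, 4.57 and 4.29 in nondiabetic arrays at 21 weeks and 4.38, 3.87 and 4.34 at 6 weeks. Every diabetic array lay above all 6 nondiabetic ones, with array 3 the highest. The diabetic mean was 5.43 ± 0.39 (SD, n = 4) against 4.46 ± 0.15 (n = 3), a 1.96-fold rise (log2 change 0.97 ± 0.20 SE, limma adjusted p = 0.0346). Il34 read 5.67, 6.03, 5.88 and 5.46 in diabetic arrays, 5.12, 4.76 and 4.26 in nondiabetic arrays at 21 weeks and 4.70, 4.46 and 4.52 at 6 weeks. Again the diabetic arrays did not overlap with any nondiabetic array. The rise was 2.07-fold (1.05 ± 0.19, limma adjusted p = 0.0206), from 4.71 ± 0.43 (SD, n = 3) to 5.76 ± 0.25 (n = 4).

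These calls rest on few mice. Neither gene passed without diabetic array 2 (Il33 adjusted p = 0.0701, Il34 0.0605), diabetic array 3 (0.0685 and 0.0746) or nondiabetic array 3 (0.144 and 0.0751). Il33 also missed the threshold without nondiabetic array 1 (limma adjusted p = 0.0749) or 2 (0.0673). Over all single arrays left out, the Il33 change ran from 0.78 to 1.07 and that of Il34 from 0.82 to 1.25. Without both arrays that stand apart, Il34 passed (0.92, adjusted p = 0.0243) and Il33 did not (0.94, adjusted p = 0.112). In a fit of these 2 groups alone neither passed (limma adjusted p = 0.0606 for Il33 and 0.0545 for Il34), and with quantile normalization Il33 did not (0.0588).

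**Figure D1:**
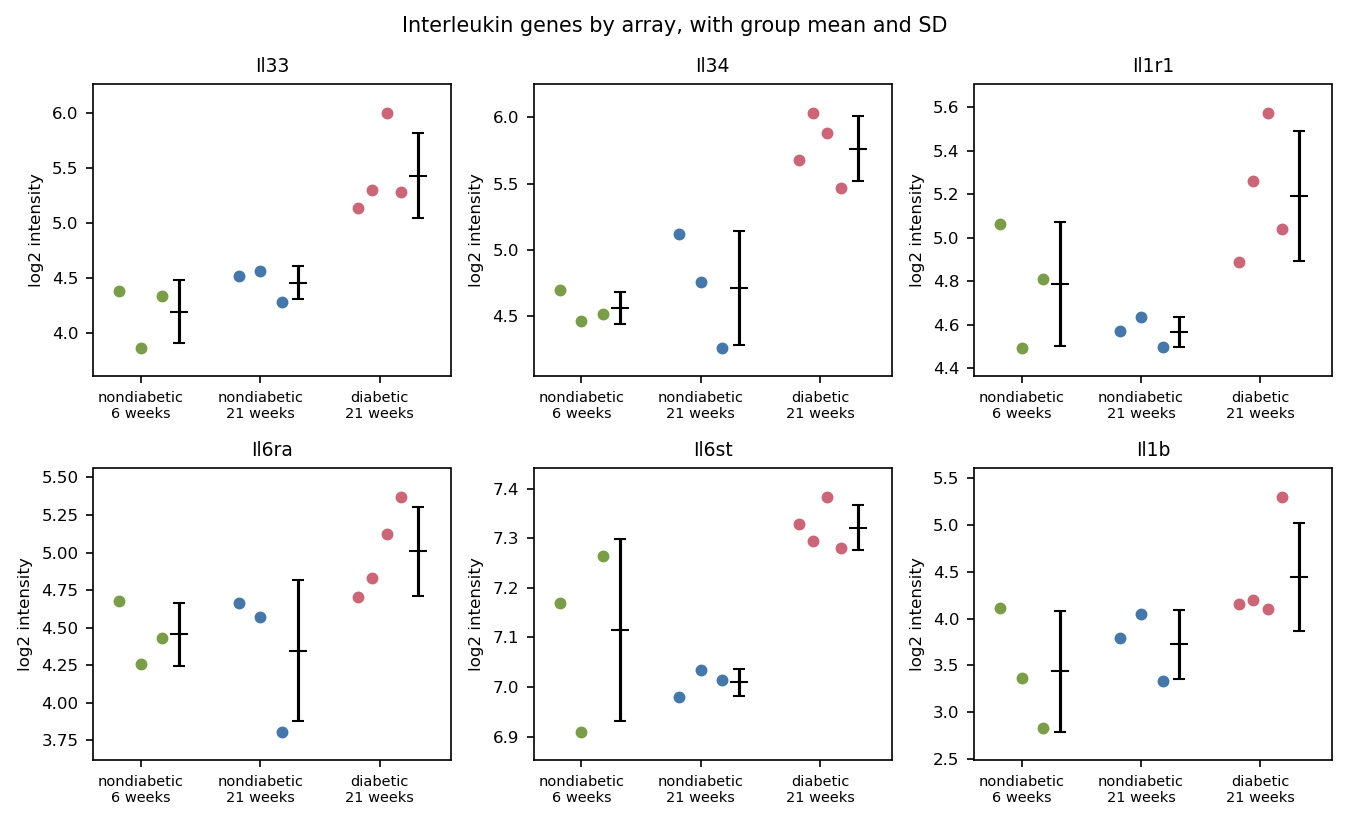
Log2 intensity (y axis) of Il33, Il34, Il1r1, Il6ra, Il6st and Il1b in each array (points) by group (x axis), with the group mean and SD as bars to the right. For each of the 6 genes every diabetic array lies above every nondiabetic 21-week array, and Il33 and Il34 are the pair that passed the test.

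Partners of these ligands were looked at next. Csf1r, the receptor of IL-34, had a log2 change of 0.28 ± 0.17 (limma adjusted p = 0.462), and Csf1, its other ligand, 0.33 ± 0.16 (adjusted p = 0.354). Csf1r read 5.03 to 5.87 in the diabetic and 5.04 to 5.12 in the nondiabetic 21-week arrays, so the groups overlapped. The IL-33 receptor chain Il1rl1 was not analysed here, and its partner Il1rap had 3 probe sets that disagreed. The brightest read 4.96 to 5.14 in diabetic and 4.33 to 5.03 in nondiabetic 21-week arrays (0.35 ± 0.16, limma adjusted p = 0.298). The mean of the Il1rap probe sets that passed the filter gave −0.07. In the dimmer of those that passed, nondiabetic 21-week array 3 read 4.29, beside 2.70 and 3.07 in arrays 1 and 2.

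Marker levels of stromal, myeloid, epithelial and endothelial cells stand beside Il33 and Il34. Over all genes 1.1% rose, 0.34% fell and 15.8% had an unadjusted p under 0.05 (limma). The 8 fibroblast markers averaged 5.90 to 6.34 in diabetic, 4.70 to 5.52 in nondiabetic 21-week and 5.10 to 6.72 in 6-week arrays. None of the 8 passed the test, at a median log2 change of 0.97, with 5 of 8 at an unadjusted p under 0.05. The array with the highest mean in this list was a 6-week array (6.72), in which Il33 read 4.38 and Il34 4.70. Its collagen genes Col1a1 (7.05), Col1a2 (6.78) and Col3a1 (7.24) were the highest of all 10 arrays, and the other markers of the list were not. Of the 12 macrophage and dendritic cell markers 2 rose, and the list averaged 5.19 to 5.62, 4.71 to 4.84 and 4.54 to 4.95. Cd68, a lysosomal protein of macrophages, was 1 of these 2 (1.17 ± 0.21, limma adjusted p = 0.0205), and Mrc1 (1.53) was the other. In this list 9 of 12 changes were above 0, at a median of 0.42. Itgax (−0.31), Flt3 (−0.10) and Xcr1 (−0.05) were below 0. The largest change was that of Lyz2 (1.76 ± 0.40, limma adjusted p = 0.0506). Of the 7 adipocyte markers 3 rose, Car3 (3.27), Fabp4 (1.37) and Retn (0.93), and the list averaged 4.70 to 5.15, 3.62 to 4.11 and 3.99 to 4.13. Its median change was 0.60. Cidec (0.60), Adipoq (0.40), Plin1 (0.30) and Lep (−0.24) did not pass, and the list mean leans on Car3. Of the 5 basal and myoepithelial markers 2 rose and all 5 had changes above 0, and the list averaged 4.95 to 5.37, 3.87 to 4.65 and 4.46 to 4.65. The pair that rose was Acta2, smooth muscle actin (1.26 ± 0.25, limma adjusted p = 0.0288), and Myh11, smooth muscle myosin (0.91 ± 0.17, adjusted p = 0.0243). Of the 6 markers of lymphatic and lymph node stroma 1 rose, and the list averaged 4.49 to 5.19, 3.48 to 4.25 and 3.89 to 4.09. It was Cxcl13, a chemokine of B cell follicles, which was 10.2-fold higher (3.35 ± 0.48, limma adjusted p = 0.00482). In the macrophage, adipocyte, basal and myoepithelial, and lymphatic and stromal lists, as for Il33 and Il34, every diabetic array lay above all 6 nondiabetic arrays. The lymphatic and stromal mean leans on Cxcl13, whose change of 3.35 stood beside a list median of 0.45. In that list 5 of 6 changes were above 0, and 2 of 6 genes did not overlap between the 21-week groups. Prox1 changed by −0.19 and Madcam1 by 0.03. The 8 endothelial markers averaged 5.05 to 5.56 in diabetic, 4.87 to 5.38 in nondiabetic 21-week and 5.38 to 5.70 in 6-week arrays. None of these 8 passed the test. The 10 duct and acinar markers averaged 6.71 to 7.070, 7.071 to 7.14 and 6.95 to 7.13, with 0 that rose and 2 that fell, Ascl3 (−1.24) and Scnn1b (−1.12). This list was split, with 3 higher and 3 lower at an unadjusted p under 0.05 (limma). The 3 higher were Epcam (0.35), Krt8 (0.39) and Krt18 (0.34), each with every diabetic array above all 6 nondiabetic arrays. The part of all these cells in the rise of Il33 and Il34 was not tested.

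Other IL-1 ligands did not pass. Il1b, the main inflammatory IL-1, read 4.15, 4.20, 4.10 and 5.30 in diabetic arrays, 3.80, 4.05 and 3.33 in nondiabetic arrays at 21 weeks and 4.11, 3.37 and 2.83 at 6 weeks. Diabetic array 4 was far above the others, and the 21-week groups did not overlap although diabetic array 3 and nondiabetic array 2 lay 0.06 apart. The change was 0.72 ± 0.33 (limma adjusted p = 0.313), which became 0.43 without diabetic array 4 and 0.23 without that array and nondiabetic array 3. Il1bos read 2.59, 3.02, 2.75 and 2.10 against 3.0004, 3.16 and 3.54, with overlap (−0.62 ± 0.20, adjusted p = 0.169), and since it lies over Il1b, signal from Il1b in its probe set was not tested. Il1a, Il1f6, Il1f10, the receptor antagonist Il1rn and the IL-36 antagonist gene Il1f5 had log2 changes between −0.30 and −0.12, and Il18bp 0.27.

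All 6 measured IL-1 receptor chains had changes above 0, from 0.15 to 0.62 with a median of 0.34, and 0 of 6 passed the test, with 3 at an unadjusted p under 0.05, which 15.8% of all genes reached. Over all genes 56% had changes above 0 in this comparison, and 59.1% of the 66 members did. Without both arrays that stand apart 5 of 6 were above 0, with Il18r1 below, at a median of 0.20. Il1r1, which carries the signal of both IL-1 forms, read 4.89, 5.26, 5.58 and 5.04 in diabetic arrays, 4.57, 4.63 and 4.50 in nondiabetic arrays at 21 weeks and 5.06, 4.49 and 4.81 at 6 weeks. The 21-week groups did not overlap, whereas 6-week array 1 lay within the diabetic range (0.62 ± 0.17, limma adjusted p = 0.107). Il18r1, a receptor chain of IL-18, read 3.28 to 4.04 against 3.16 to 3.52, and its partner Il18rap 3.76 to 4.70 against 3.37 to 3.78. Of these 6 genes 5, Il1r2, Il1r1, Il1rl2, Il18r1 and Il18rap, lie next to each other in the genome with Il1rl1 as their neighbour, in the order of the RefSeq annotation. Their changes are among the 6 given above, so the direction of these neighbours is no further result. In another run of neighbours, Il1f6, Il1f5, Il1f10 and Il1rn, 0 of 4 measured genes were above 0.

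Members of the joint group of gp130 and IL-12 cytokines and receptors were next in order. Il6ra, the receptor chain that binds IL-6, read 4.71, 4.83, 5.12 and 5.37 in diabetic arrays, 4.66, 4.57 and 3.81 in nondiabetic arrays at 21 weeks and 4.68, 4.26 and 4.43 at 6 weeks. The 21-week groups did not overlap, by 0.04 between diabetic array 1 and nondiabetic array 1 (0.66 ± 0.22, limma adjusted p = 0.168). The change was 0.39 without nondiabetic array 3 and 0.27 without that array and diabetic array 4. Il6st, which encodes gp130, read 7.33, 7.29, 7.38 and 7.28 against 6.98, 7.03 and 7.01. There was no overlap and little spread within either of these groups of arrays (0.31 ± 0.12, limma adjusted p = 0.228). At 6 weeks it read 7.17, 6.91 and 7.26. The ligands Il11, Il12a, Il12b, Il23a, Il27 and Il31 had changes between −0.28 and 0.28, and 0 of the 6 passed, with 0 at an unadjusted p under 0.05 (limma). The 7 receptor chains of this group ranged from −0.25 (Il31ra) to 0.66 (Il6ra).

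Il31 and its receptor Il31ra were the members whose diabetic arrays all lay below the nondiabetic 21-week arrays, against 6 that lay all above. Over both directions 8 of 66 members (12.1%) did not overlap, beside 14.1% of all genes. Il31ra read 3.60, 3.61, 3.18 and 3.65 in diabetic arrays and 3.67, 3.72 and 3.88 in nondiabetic 21-week arrays, with diabetic array 3 the lowest.

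Receptors of the common gamma chain group and IL-13 showed 8 of 8 changes above 0 (median 0.27, 0.06 to 0.96), of which 0 passed in limma and 0 reached an unadjusted p under 0.05. With quantile normalization 7 of 8 were above 0, with Il13ra1 below, and without both arrays that stand apart 5 of 8 were, at a median of 0.02. Il7r, the receptor of IL-7 on T cells, read 4.69, 4.49, 4.79 and 7.20 in diabetic arrays, 4.93, 4.66 and 3.42 in nondiabetic arrays at 21 weeks and 3.93, 3.34 and 3.52 at 6 weeks. Diabetic array 4 exceeded the other 3 of its group by 2.40 or more, and nondiabetic array 3 lay 1.24 below its nearest neighbour (0.96 ± 0.55, limma adjusted p = 0.424). Without both arrays the change was −0.14. Il21r, a receptor of helper T cell signals on B cells, read 3.16, 3.74, 3.62 and 5.05 against 3.50, 3.71 and 3.27, again with array 4 apart (0.40 ± 0.33, adjusted p = 0.597). Without both arrays its value was −0.10. Il4ra, shared by IL-4 and IL-13, read 4.79, 4.61, 4.64 and 5.64 against 4.69, 4.62 and 4.66 (0.26 ± 0.22, adjusted p = 0.603), and Il2rb 4.18, 4.33, 4.39 and 4.79 against 4.39, 4.14 and 3.61 (0.37 ± 0.20, adjusted p = 0.379). The groups of both genes overlapped. Without diabetic array 4 the Il4ra change was 0.025, and without both arrays that stand apart it was 0.026. That of Il2rb was 0.16 without nondiabetic array 3, 0.25 without diabetic array 4 and 0.035 without both. The 6 measured ligands of the group (Il4, Il7, Il9, Il13, Il15 and Il21) had log2 changes from −0.16 to 0.27, with 0 at an unadjusted p under 0.05 (limma).

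Among all members, diabetic array 4 was the highest of its 4 arrays for 32 of 66 (48.5%), beside 30.2% of all genes. It also had the highest T and B cell marker means of all 10 arrays. Cd3e, a chain of the T cell receptor complex, read 5.32, 5.52, 5.84 and 7.45 in the diabetic arrays. Cd79a, a chain of the B cell receptor complex, read 4.85, 4.30, 4.21 and 6.32. The part of lymphocytes in the receptor values of array 4 was not tested.

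**Figure D2:**
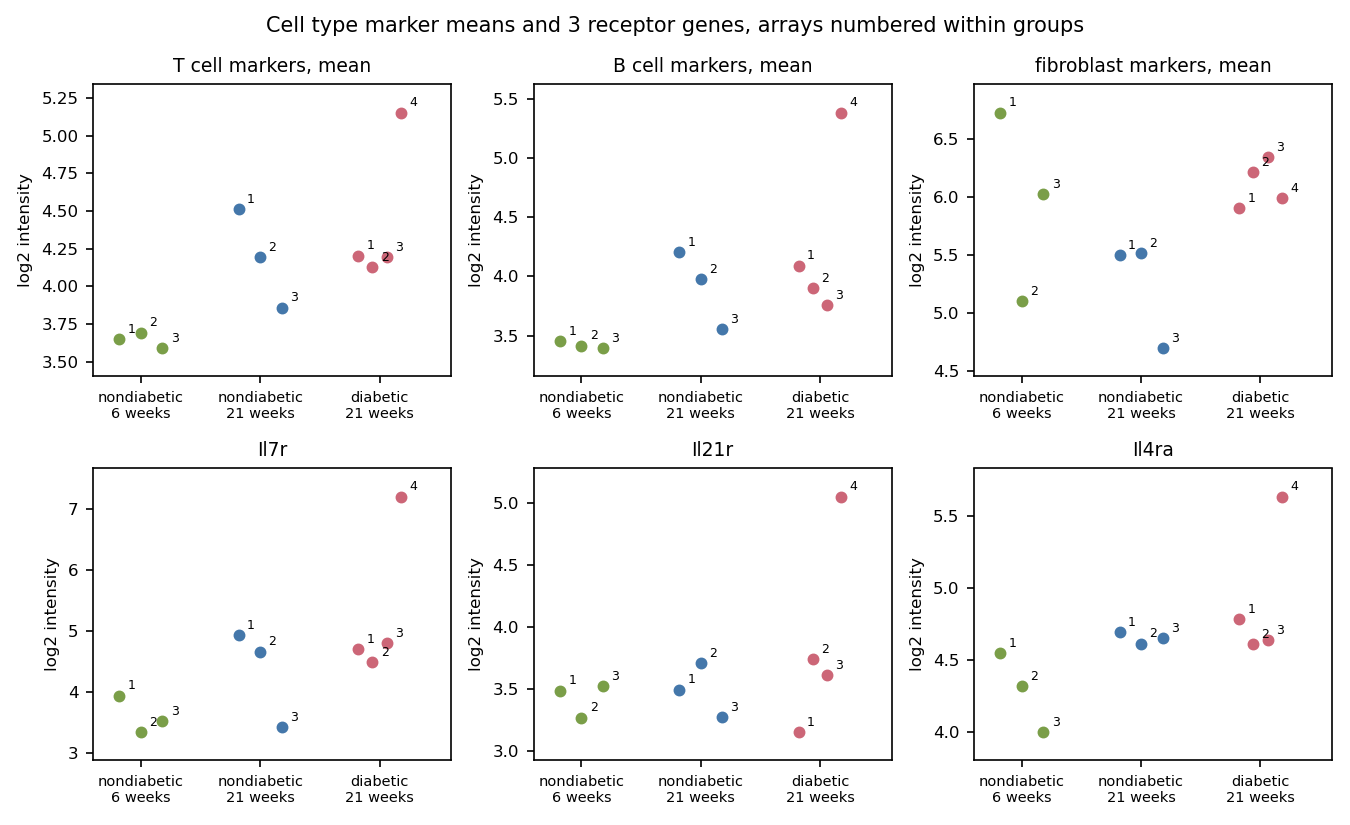
Mean log2 intensity of T cell, B cell and fibroblast markers (upper row) and log2 intensity of Il7r, Il21r and Il4ra (lower row), by group (x axis) with arrays numbered within their group. Diabetic array 4 is highest in the T cell, B cell, Il7r, Il21r and Il4ra panels and within the range of its group in the fibroblast panel, where nondiabetic 21-week array 3 is lowest.

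No gene of the remaining families passed. In the IL-10 family 0 of 9 passed (limma), with changes from −0.36 (Il22ra1) to 0.35 (Il19), and in the IL-17 family 0 of 10, from −0.18 (Il17rb) to 0.35 (Il17ra), the chain shared by IL-17 receptors. The common beta chain group had 0 of 3, from −0.05 (Il5) to 0.32 (Il5ra). Unadjusted p values under 0.05 numbered 1, 0 and 0 in these families. Il16, a lymphocyte attractant, read 2.86 to 3.57 against 2.88 to 3.26, with a change of 0.18.

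**Figure D3:**
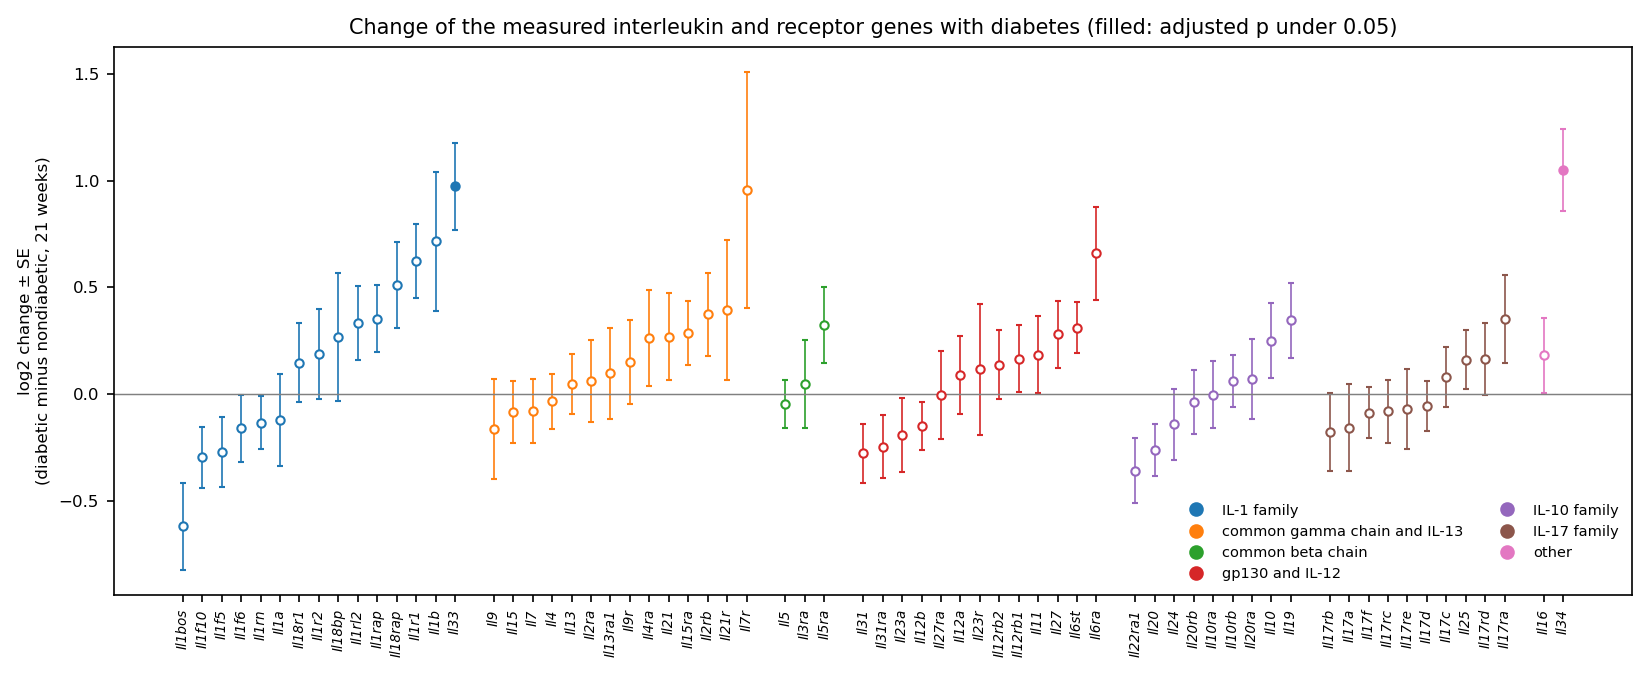
Log2 change ± SE (y axis, diabetic minus nondiabetic at 21 weeks) of the 66 measured genes (x axis), grouped and coloured by family. Il33 (0.97) and Il34 (1.05) are the 2 filled points with an adjusted p under 0.05, and Il7r (0.96) has a change of like size with a wider error.

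Genes that act with or after the interleukins were read from lists, whose directions were known from earlier results. The counts of the lists stand beside 1.1% of all genes that rose and 0.34% that fell. Of 16 measured partner cytokines and receptors with other names 1 rose, 0 fell and 15 did not pass. It was Osmr, the gp130 partner for oncostatin M, at 4.82, 4.995, 5.40 and 4.73 in diabetic arrays, 4.30, 3.80 and 3.91 in nondiabetic arrays at 21 weeks and 4.77, 4.48 and 4.49 at 6 weeks. The 21-week groups did not overlap, and the 6-week array 1 lay within the diabetic range (0.98 ± 0.18, limma adjusted p = 0.0185). Without nondiabetic array 2 or 3 the adjusted p was 0.0642 or 0.0791.

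Of 8 measured IL-17 adaptor and response genes 1 rose and 7 did not pass. Lcn2, an iron-binding defence protein, read 6.25, 6.21, 5.96 and 6.10 against 4.95, 4.35 and 4.22, with no overlap (3.08-fold, 1.62 ± 0.17, limma adjusted p = 0.000608). At 6 weeks it read 4.81, 4.67 and 5.07. It passed under all 17 alternatives, with changes of 1.48 to 1.84.

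Of 12 measured STAT3 response genes 2 rose and 10 did not pass, at a median change of 0.25. The list was mixed, with 8 of 12 changes above 0. Saa2 (−0.50, limma adjusted p = 0.139), Saa3 (−0.26), Hp (−0.10) and Timp1 (−0.02) were below 0. Saa2 read 2.47, 1.88, 1.91 and 2.27 in diabetic arrays against 2.68, 2.68 and 2.55 in nondiabetic 21-week arrays, with no overlap. Cebpd, an acute phase transcription factor, read 5.39, 5.65, 5.64 and 5.67 against 4.77, 4.72 and 4.26 (1.01 ± 0.18, limma adjusted p = 0.0158). Lbp, which binds bacterial lipopolysaccharide, read 4.84, 4.61, 4.76 and 4.40 against 3.95, 3.56 and 3.10 (1.12 ± 0.20, adjusted p = 0.0151). The groups of both genes did not overlap. Each missed the threshold without diabetic array 3 (0.0577 and 0.0575) and without nondiabetic array 3 (0.0745 and 0.0633).

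Of 12 measured IL-4 and IL-13 response genes 2 rose and 10 did not pass. Ccl11, an eosinophil attractant, read 5.85, 6.17, 6.84 and 6.82 against 5.01, 5.17 and 4.06 (1.67 ± 0.34, limma adjusted p = 0.0334). Mrc1, the macrophage mannose receptor, read 5.42, 5.16, 6.57 and 5.67 against 4.24, 4.44 and 3.86 (1.53 ± 0.33, adjusted p = 0.0397). Neither overlapped. Ccl11 missed the threshold when any of diabetic arrays 2, 3 or 4 or nondiabetic arrays 1 or 3 was left out (adjusted p up to 0.146), and Mrc1 when any of diabetic arrays 1, 3 or 4 or any nondiabetic array was (up to 0.16). Without both arrays that stand apart, Ccl11 (0.155), Mrc1 (0.154) and Cebpd (0.0802) missed it too, as did Ccl11 and Mrc1 with quantile normalization (0.0505 and 0.0597) and Mrc1 with array weights (0.0503). Mrc1 also stands among the macrophage markers above.

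**Figure D4:**
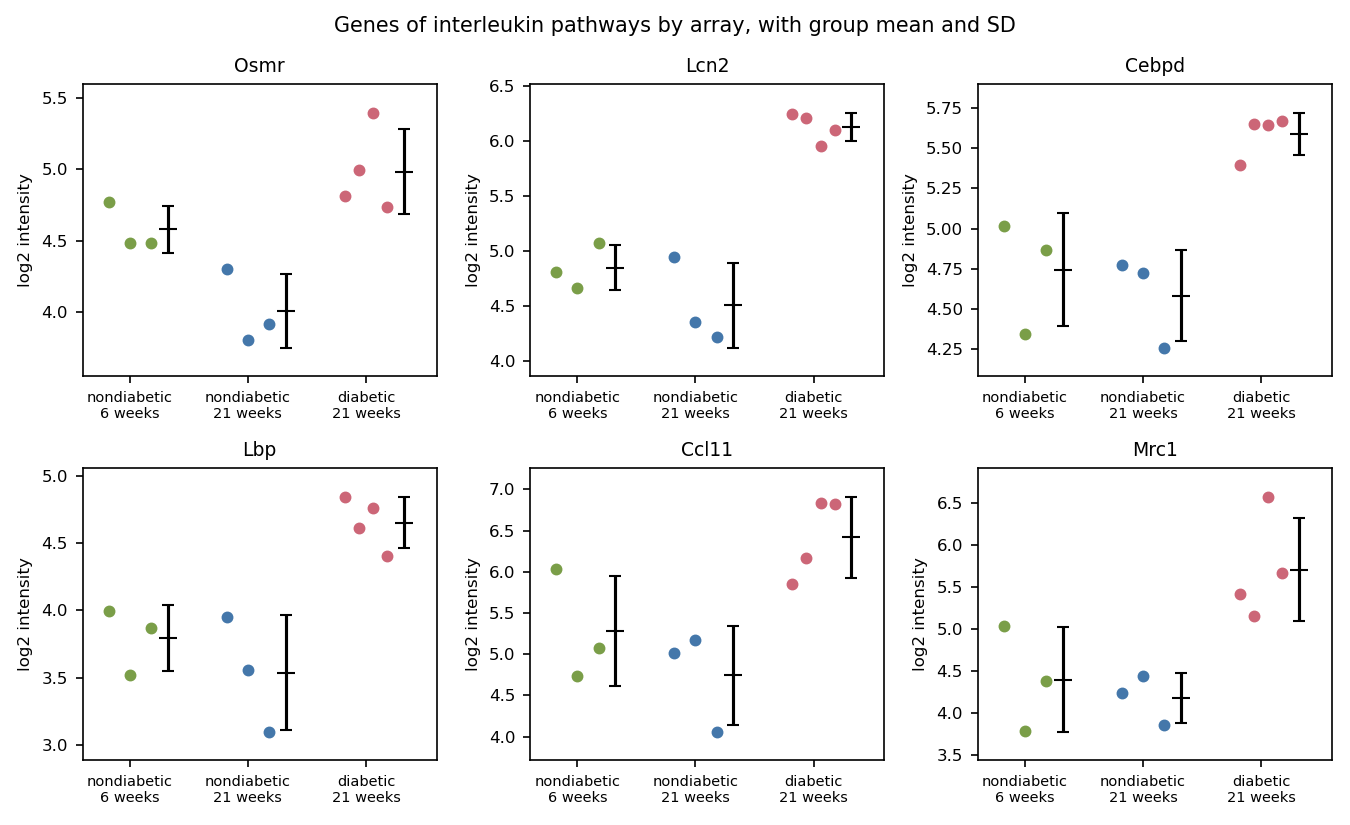
Log2 intensity (y axis) of Osmr, Lcn2, Cebpd, Lbp, Ccl11 and Mrc1 by array (points) and group (x axis), with the group mean and SD as bars to the right. All 6 genes rose in diabetic against nondiabetic 21-week glands and have no overlap between those groups.

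In the other 4 lists 0 genes passed (limma). Of 12 IL-1 receptor and Toll adaptor genes all 12 had changes above 0, beside 56% of all genes. With quantile normalization 8 of 12 did, without diabetic array 2 alone 9 and without both arrays that stand apart 10. The median was 0.20 beside 0.03 over all genes, and 4 reached an unadjusted p under 0.05 (limma), beside 15.8% of all genes. Between nondiabetic mice at 21 and 6 weeks, 2 of these 12 were above 0. The smallest p in diabetes was that of Myd88, the common adaptor (0.81 ± 0.19, limma adjusted p = 0.053). Myd88 read 5.57, 5.65, 5.43 and 5.71 against 5.12, 4.96 and 4.25, with no overlap. At 6 weeks it read 5.37, 5.48 and 5.14, which overlapped with the diabetic arrays (0.26 ± 0.19, limma adjusted p = 0.552). In the inflammasome list 1 of 9 reached that level, led by Casp4, an inflammatory caspase (0.81 ± 0.34, adjusted p = 0.268). Casp4 read 3.59, 4.27, 4.08 and 4.56 against 3.69, 3.97 and 2.28, with overlap, and its change was 0.29 without nondiabetic array 3 and 0.15 without both arrays that stand apart. Of the JAK and STAT genes 3 of 9 did, led by Jak2, a kinase of cytokine receptors (0.64 ± 0.16, adjusted p = 0.0749), and of the feedback inhibitors 3 of 12, led by Socs3 (1.12 ± 0.27, adjusted p = 0.065). Socs3, which restrains gp130 signalling, read 5.32, 5.37, 5.90 and 6.54 against 4.71, 4.87 and 4.43.

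The second comparison set nondiabetic mice at 21 weeks against those at 6 weeks. No member passed the test in limma, against 0.00531% of all genes that rose and 0.0212% that fell. At an unadjusted p under 0.05, 6 of 66 (9.09%) differed beside 7.47% of all genes, and 9 members (13.6%) did not overlap between the groups beside 13.8%. The smallest p was that of Il10ra, the ligand-binding chain for IL-10, at 4.64, 4.40 and 4.37 against 3.999, 4.25 and 3.74 at 6 weeks. These groups did not overlap (0.47 ± 0.17, limma adjusted p = 0.617). Il15ra, which presents IL-15, read 5.16, 5.27 and 4.89 against 5.50, 5.604 and 5.47 at 6 weeks, also with no overlap (−0.42 ± 0.16, adjusted p = 0.629). Il17rc, a second chain of the IL-17 receptor, read 5.72, 5.77 and 5.72 against 6.18, 6.05 and 6.07 (−0.36 ± 0.16, adjusted p = 0.635). Il20, Il1f5 and Il18r1 complete the 6, with changes of 0.33, 0.43 and 0.45. For Il33 and Il34 the differences were 0.26 ± 0.22 and 0.15 ± 0.21 (limma adjusted p = 0.806 and 0.888). Without both arrays that stand apart, Il7r passed in this comparison (1.19, limma adjusted p = 0.0298), and the 10 measured T cell markers had a median of 0.38 with all arrays, with 0 of 10 past the test and 2 at an unadjusted p under 0.05. Their means were 3.86 to 4.51 against 3.59 to 3.69 at 6 weeks, with no overlap, and their part in the Il7r value was not tested.

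The third comparison set diabetic mice at 21 weeks against nondiabetic mice at 6 weeks, so it shares the diabetic arrays with the first and differs in both disease and age. Il33 rose by 1.24 ± 0.20 (limma adjusted p = 0.0117) and Il34 by 1.20 ± 0.19 (adjusted p = 0.0106). These 2 of 66 (3.03%) stood beside 0.903% of all genes that rose, and 0 members fell beside 0.542%. Without 6-week array 2 or 3 both lost the call, at 0.0661 and 0.0524 for Il33 and 0.0604 and 0.0645 for Il34. At an unadjusted p under 0.05, 14 members (21.2%) differed, 12 of them higher, beside 14.9% of all genes. Between these groups 15 (22.7%) did not overlap, beside 16.7%.

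The next 4 members by p did not pass. Il18r1 read 3.28, 3.43, 3.39 and 4.04 in diabetic and 2.74, 2.90 and 3.17 in 6-week arrays (0.60 ± 0.19, limma adjusted p = 0.148), and Il2rb had a change of 0.62 ± 0.20 (adjusted p = 0.155). Il7r had a change of 1.69 ± 0.55 (adjusted p = 0.167), and Il1b 1.00 ± 0.33 (adjusted p = 0.167). The first 3 did not overlap between these groups and Il1b did. Without both arrays that stand apart Il7r passed, at 1.06 (limma adjusted p = 0.0074). The mean levels of lymphocyte markers were also higher in these diabetic arrays than at 6 weeks. All 10 T cell markers had changes above 0 (median 0.51), 1 of 10 rose, Cd3g, a chain of the T cell receptor complex (1.97 ± 0.33, limma adjusted p = 0.0122), and the list averaged 4.13 to 5.15 against 3.59 to 3.69. All 8 B cell markers were above 0 (median 0.86), 0 of 8 passed with 5 at an unadjusted p under 0.05 (limma), and the list averaged 3.76 to 5.38 against 3.40 to 3.45. Neither list overlapped between the groups, and the part of lymphocytes in the Il7r, Il2rb and Il18r1 values was not tested. Lcn2 (1.28 ± 0.17, adjusted p = 0.00473), Cebpd (0.85 ± 0.18, adjusted p = 0.0369) and Junb, an AP-1 factor (1.01 ± 0.20, adjusted p = 0.0327), passed. Of the 6 partner and response genes described above that rose against nondiabetic mice of the same age, the other 4 did not pass against 6-week mice. These were Osmr (0.41 ± 0.18, limma adjusted p = 0.302), Lbp (0.86 ± 0.19, adjusted p = 0.0515), Ccl11 (1.14 ± 0.35, adjusted p = 0.136) and Mrc1 (1.31 ± 0.33, adjusted p = 0.074). Osmr and Ccl11 overlapped between these groups. Cebpd missed the threshold when any of the 6-week arrays or diabetic arrays 2, 3 or 4 was left out (adjusted p up to 0.153), and Junb when any 6-week array or diabetic array 2 or 3 was (up to 0.136).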

How the data were processed

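Salivary gland cells of 10 mice were profiled on Affymetrix arrays after Trizol extraction and biotin labelling of sense cDNA, per the labels' protocols. The authors deposited 1 log2 intensity per probe set and array. They used Affymetrix Power Tools for RMA normalization, as the submitters' processing notes name both. For versions, settings and overlapping genes, nothing is given in the sources used here.

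Of 41345 probe sets, 23521 had 1 gene symbol, 1814 several and 16010 none here. Probe sets with 1 symbol above the array's 25th percentile on at least 3 arrays were kept, 1 per gene, the brightest, which left 18826 genes. All 10 arrays entered 1 limma 3.58.1 fit in R 4.3.3 with a mean per group (residual degrees of freedom 7, prior 5.61). The 3 differences were tested two-sided with Benjamini-Hochberg adjustment over all genes. The members, the 8 pathway lists, the 15 marker lists and the tests were chosen with earlier results of these data known. Named genes were members past the threshold, the 6 members with the smallest p per comparison, a set of members central to the gland or lymphoid infiltrates, and for each pathway list the genes past the threshold or else the smallest p. Csf1, Csf1r, Il31ra and Il16 were added for their place beside a named gene or in a family.

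Promoter windows and gene order come from RefSeq (GRCm38.p6), and 61 of 78 members had a window. The steps were tested on simulated data. Alternatives covered the filter, the probe set rule, the groups in the fit, the variance model, array weights, 2 normalizations, the threshold, a block for the replicate number, and fits that leave out 1 array. Leaving out both arrays that stand apart was chosen after seeing the data. The number of arrays limits the precision.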

Additional observations from a re-analysis of the deposited data

Results flagged for a closer look

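In the diabetic group, the only one with enough arrays for this rule, 7 of 66 measured members had 1 array far from the other 3, with a gap of more than 0.829 of the group's range. Chance flags about 1 in 20 groups. The share of all genes flagged by this rule was not computed, so the count is not read as a trait of the members. In 5 of the 7 the array was diabetic array 4, each time the highest. Il7r read 7.20 there against 4.49 to 4.79 in the other 3, Il4ra 5.64 against 4.61 to 4.79, Il1b 5.30 against 4.10 to 4.20, Il17c 4.67 against 4.31 to 4.35 and Il22ra1 3.48 against 3.11 to 3.16. In diabetic array 3 Il25 read 4.86 against 4.56 to 4.59, and Il31ra read 3.18 against 3.60 to 3.65.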

How the results depend on the processing

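In the comparison of diabetes, the count of 2 members became 0 in a fit of the 2 groups alone (Il33 adjusted p = 0.0606, Il34 0.0545), 1 with quantile normalization, 1 with the replicate number as a block and 1 without both arrays that stand apart, an alternative chosen after seeing the data. With 1 array left out it ranged from 0 to 2. The age count of 0 became 1 (Il7r) without both arrays that stand apart and stayed 0 with any 1 array left out. The count of 2 for diabetic against 6-week mice ranged from 0 to 2 with 1 array left out and was 2 with the replicate number as a block. The remaining alternatives listed kept these counts within 1.5 times. Same-numbered arrays had correlations of deviations between −0.12 and 0.07, and differently numbered arrays between −0.10 and 0.10. With 3 arrays of shared number per group, these values cannot settle whether the numbers pair samples. Diabetic array 4, with no counterpart, does not enter the block's differences. Il1rap in diabetes was −0.070 with the mean of its probe sets that passed the filter. Il18r1 in diabetes was −0.024 with array weights, −0.021 with the block, −0.021 to 0.23 with 1 array left out and −0.14 without both arrays, where Il7r was −0.14 and Il21r −0.10. Il34 with age ranged from −0.052 to 0.38 with 1 array left out. The cause of these changes was not tested. Among all named genes, 104 values of 37 gene and comparison pairs that did not pass the test changed sign under some alternative, and 0 that passed did. Myd88 in diabetes passed under 4 alternatives and Socs3 under 2. Members near the 25th percentile are limited by signal over background.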
